A study of Homo sapiens with 2 samples.

Results

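Messenger RNA of the HP1 proteins and of the enzymes and partners that write the histone mark they bind was measured in a human lymphoblastoid cell line. The members were 10 genes: CBX1, CBX3 and CBX5, which encode HP1 beta, gamma and alpha; the methyltransferase genes SUV39H1, SUV39H2, SETDB1, EHMT1 and EHMT2; and TRIM28 and ATRX. They were chosen by name: every probe set whose platform annotation gave exactly 1 gene symbol, that symbol being 1 of the 10, was used. This gave 22 probe sets of the 36289 with values, and 10 of the 16716 genes with at least 1 such probe set. No probe set listed a member together with another gene.

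The series has 1 group, so no condition, treatment or time was compared. It holds 2 samples of a B-cell line immortalised with Epstein-Barr virus, labelled replicates 1 and 2, each on its own Human Genome U133 Plus 2.0 array. The titles spell the line GM06690 and the growth protocol GM06990. The cells grew in RPMI1640 with serum and the labels name no treatment. Nor do they say whether the replicates were separate cultures, so the SDs below may measure technical error alone. It is a single line carrying a virus, and the series title places it beside Hi-C maps of chromosome contacts. In bulk RNA, fewer cells with a transcript and less of it per cell cannot be told apart.

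HP1 proteins are small adaptors of silent chromatin. Their chromodomain binds histone H3 methylated on lysine 9 (H3K9), and their chromoshadow domain forms dimers and binds other proteins. SUV39H1 and SUV39H2 write the trimethyl mark of heterochromatin around centromeres; SETDB1 writes it at transposon-derived sequences, brought there by TRIM28 and KRAB zinc finger proteins; EHMT1 and EHMT2 pair to write mainly the dimethyl mark in the arms of chromosomes. ATRX is a chromatin remodeller that deposits the histone variant H3.3 together with DAXX. In many cell types, B cells among them, these proteins keep repeated sequences silent and mark inactive chromatin.

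The start regions of the 3 HP1 genes are shown because they carry a feature found in the windows of all 8 members examined and more often in genes above background across the array, namely many CpG dinucleotides (capitals). Each window runs from 250 bases before the start of the gene to 50 bases after it, on the strand of the gene, from RefSeq (GRCh38.p14). The CBX1 window is chr17:48101137-48101436 on the minus strand, the CBX3 window chr7:26201193-26201492 on the plus strand, and the CBX5 window chr12:54280073-54280372 on the minus strand.
CBX1: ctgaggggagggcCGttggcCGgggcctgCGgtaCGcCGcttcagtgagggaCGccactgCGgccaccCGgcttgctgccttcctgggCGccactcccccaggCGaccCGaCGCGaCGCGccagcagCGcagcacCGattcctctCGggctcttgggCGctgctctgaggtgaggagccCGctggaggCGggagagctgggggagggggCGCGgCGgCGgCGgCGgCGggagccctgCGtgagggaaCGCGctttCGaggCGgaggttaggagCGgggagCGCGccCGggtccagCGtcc
CBX3: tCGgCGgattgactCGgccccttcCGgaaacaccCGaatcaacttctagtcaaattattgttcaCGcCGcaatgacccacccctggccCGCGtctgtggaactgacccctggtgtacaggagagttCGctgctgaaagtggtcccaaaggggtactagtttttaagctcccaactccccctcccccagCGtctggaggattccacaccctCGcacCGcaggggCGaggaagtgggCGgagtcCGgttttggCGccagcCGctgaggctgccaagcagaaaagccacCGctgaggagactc
CBX5: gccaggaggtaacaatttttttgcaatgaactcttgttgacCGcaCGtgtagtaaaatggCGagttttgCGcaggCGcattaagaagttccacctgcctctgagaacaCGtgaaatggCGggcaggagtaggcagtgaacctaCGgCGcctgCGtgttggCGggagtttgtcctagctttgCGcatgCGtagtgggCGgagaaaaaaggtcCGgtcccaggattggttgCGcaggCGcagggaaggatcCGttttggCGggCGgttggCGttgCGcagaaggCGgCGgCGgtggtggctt
The CBX1 window held 38 CpG, the CBX3 window 19 and the CBX5 window 25.

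Signals below are log2 RMA values, and a mean is given ± SD over the 2 arrays (n = 2). Since RMA gives no detection call, signals were compared with a background level, for each array the 95th percentile of the signals of 77 genes chosen as typical of other tissues, such as liver, muscle or eye. It was 5.94 in replicate 1 and 5.90 in replicate 2, and a gene counted as above background when its brightest probe set exceeded the level on both arrays. Of the 77 genes 4 were above it themselves, among them KRT10 (11.24 ± 0.08) and MBP (10.33 ± 0.04). Probe sets differ in affinity, so a higher signal of one gene than of another is not a higher amount of transcript, and no such order is given here.

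All 10 member genes were above background, against 50.5% of all genes, and so were all 22 of their probe sets, against 45.7% of all probe sets with 1 symbol. The median signal was 10.29 over the members, 9.11 over all genes above background and 6.10 over all genes. Every member lay above the median gene, from percentile 61.3 for SETDB1 to percentile 98.1 for CBX3, a rank of signal and not of abundance. The calls of the genes held at all settings tried but 1, for each member that could still be measured: at the 99th percentile of the tissue genes, which lies between the signals of MBP and KRT10, 4 of 10 members were above, against 11.0% of all genes. With KRT10 left out of the tissue genes, 10 of 10 members were above, against 38.7% of all genes. At the looser 75th percentile 10 of 10 members were above, against 61.0% of all genes. With no contrast between groups, these shares are descriptions and no test was run.

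**Figure D1:**
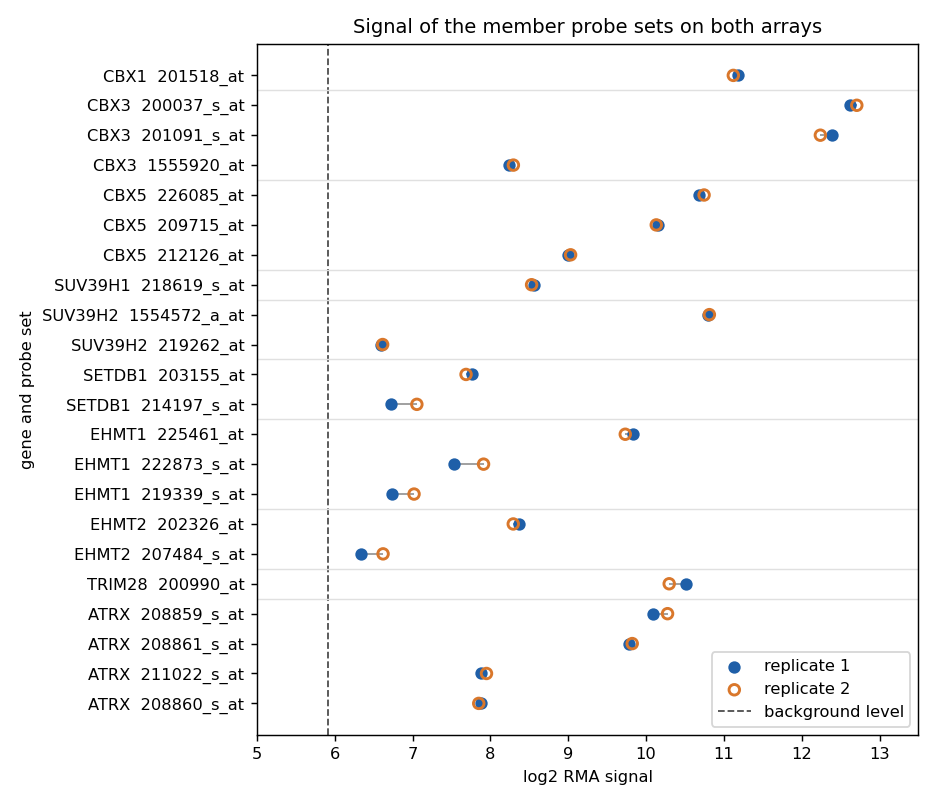
Each row is 1 probe set of a member gene, grouped by gene, and the horizontal axis is the log2 RMA signal. Filled circles are replicate 1, open circles are replicate 2, and the dashed line is the mean background level (5.92); all 22 rows lie to its right on both arrays, and the 2 circles of a row lie between 0.01 and 0.38 apart.

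The HP1 genes gave strong signals that were close on the 2 arrays. CBX3, which encodes HP1 gamma, the form also found within active genes, had 12.62 in replicate 1 and 12.71 in replicate 2 by probe set 200037_s_at (12.67 ± 0.06), a linear intensity of 6316 and 6690. A second CBX3 probe set, 201091_s_at, gave 12.38 and 12.24 (12.31 ± 0.10). The arrays thus differed in opposite directions for these 2 probe sets, by 0.08 and -0.14 (replicate 2 minus replicate 1). Probe set 1555920_at gave 8.24 and 8.30 (8.27 ± 0.04), still 2.35 above the mean background level and 4.40 below the brightest. This was the widest gap between probe sets of any member, and the cause was not tested.

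CBX1, which encodes HP1 beta, had 11.18 and 11.12 by its only probe set used here (11.15 ± 0.04). CBX5, which encodes HP1 alpha, had 10.67 and 10.75 by probe set 226085_at (10.71 ± 0.05). Its further probe sets gave 10.14 ± 0.01 and 9.02 ± 0.02, and all 3 kept their order on both arrays. The gene table lists 10 pseudogenes of CBX3, 5 of CBX1 and 1 of CBX5, which arise as copies of the messenger RNA, and probes may bind their transcripts too. CBX3P2, the only one with a probe set used here, was below background (3.31 ± 0.08).

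For the SUV39H pair the arrays differed by only a few hundredths. SUV39H1 had 8.56 in replicate 1 and 8.53 in replicate 2 (8.54 ± 0.02), by 1 probe set. SUV39H2 had 10.80 and 10.81 by probe set 1554572_a_at (10.81 ± 0.01), the smallest SD of all members. Its other probe set, 219262_at, gave 6.60 and 6.62 (6.61 ± 0.01), only 0.69 above the mean background level. Probe set 1554572_a_at lay 4.89 above it, so the 2 probe sets place SUV39H2 very differently.

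SETDB1, the methyltransferase recruited by TRIM28, had the signal closest to background among the genes' brightest probe sets, with 7.76 and 7.69 by 203155_at (7.72 ± 0.05). This was 1.80 above the mean level, an intensity 3.49 times as high. Its second probe set, 214197_s_at, gave 6.73 and 7.05 (6.89 ± 0.23). EHMT1, which encodes the protein GLP, had 9.83 and 9.73 by 225461_at (9.78 ± 0.07), and its others gave 7.72 ± 0.27 and 6.87 ± 0.20. EHMT2, which encodes G9a, had 8.36 and 8.29 by 202326_at (8.33 ± 0.05). Its second probe set, 207484_s_at, gave 6.34 and 6.62 (6.48 ± 0.20), the lowest signal of any member probe set. For these 3 genes the brightest probe set was far more repeatable than the others.

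TRIM28, the co-repressor that KRAB zinc finger proteins bind, had 10.52 in replicate 1 and 10.30 in replicate 2 by its only probe set used here (10.41 ± 0.15). ATRX had 10.08 and 10.28 by 208859_s_at (10.18 ± 0.14), 9.78 and 9.82 by 208861_s_at (9.80 ± 0.03), 7.88 and 7.95 by 211022_s_at (7.92 ± 0.05), and 7.88 and 7.85 by 208860_s_at (7.86 ± 0.02). The 4 ATRX probe sets thus formed an upper pair, 0.38 apart, and a lower pair, 0.05 apart. The pairs were 1.88 apart at the nearest.

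Probe sets of a member called the gene alike. Of the 10 members 7 had at least 2 probe sets, and in all 7 every probe set was above the main background level. Among the 4680 genes above background with at least 2 probe sets, 48.9% had all of them above. The gap between the dimmest and the brightest probe set ranged from 0.83 for SETDB1 to 4.40 for CBX3, with a median of 2.32, against a median of 2.62 over those 4680 genes. Probe sets of a member were thus about as far apart as those of other genes, while none of them fell below the level.

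The arrays differed little in the members. The median difference over the 10 genes was -0.04 (replicate 2 minus replicate 1), against a median of -0.02 over all genes above background. The signal was higher in replicate 1 for 6 of the 10 genes, against 57.2% of all genes above background. Over the 22 member probe sets the count ran the other way, with 9 higher in replicate 1 and 13 in replicate 2. With the mean of all probe sets of a gene the median difference was 0.022, so the members had no settled direction. Over the 22 probe sets the median SD was 0.05, as it was over all probe sets with 1 symbol above background (0.05). A difference of more than 0.2 was seen in 5 of the 22 member probe sets (22.7%), against 13.7% of all such probe sets.

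Of these 5, TRIM28 was higher in replicate 1 (-0.22), and the other 4 were higher in replicate 2: EHMT1 by 222873_s_at (0.38) and by 219339_s_at (0.29), SETDB1 by 214197_s_at (0.33) and EHMT2 by 207484_s_at (0.28). All 4 end in _s_at, a suffix for probe sets that can match several transcripts. The brightest probe sets of the same genes went the other way, EHMT1 by -0.10, SETDB1 by -0.07 and EHMT2 by -0.07. No direction of difference between the replicates can therefore be given for EHMT1, EHMT2 or SETDB1.

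These 4 probe sets were also among the dimmer ones. With a mean signal between 6 and 8 on the log2 scale, 27.6% of 4539 probe sets differed by more than 0.2, and of the 8 member probe sets in that range 4 did. Above 8 it was 6.70% of 8913 probe sets and 1 of 14 member probe sets, that of TRIM28. In the dimmer range 42.5% of the probe sets were higher in replicate 2, and 42.8% of those ending in _s_at. Why the 4 member probe sets were higher in replicate 2 was not tested. The dimmer range was chosen after the values were seen.

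**Figure D2:**
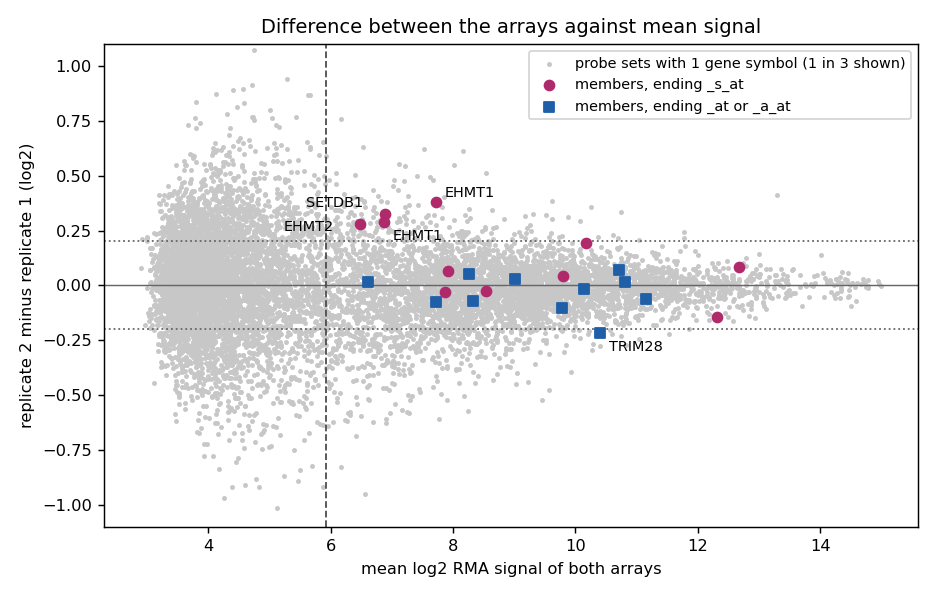
The horizontal axis is the mean log2 RMA signal of both arrays and the vertical axis is replicate 2 minus replicate 1 on the log2 scale. Grey points are probe sets with 1 gene symbol (1 in 3 shown), coloured points are the 22 member probe sets, dotted lines mark differences of 0.2 and the dashed line marks the background level; the 4 member probe sets above the upper dotted line belong to EHMT1 (2 probe sets), SETDB1 and EHMT2, and the 1 below the lower line to TRIM28.

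The identity of the cells was checked with markers. All 7 measured B-cell markers were above background, among them MS4A1, which encodes CD20 (13.19 ± 0.10), CD79A (11.30 ± 0.03) and CD79B (9.59 ± 0.05, by 1 of 3 probe sets). None of 7 T-cell and NK-cell markers was, with CD3D at 4.94 ± 0.21, CD3E at 4.49 ± 0.04, CD3G at 4.50 ± 0.09, CD8A at 3.90 ± 0.13 and NCAM1 at 4.84 ± 0.07. None of 6 myeloid markers was (3.66 to 5.01), among them CD14, LYZ, CSF1R, MPO and ELANE, and none of 7 stromal and epithelial markers (3.87 to 5.19), among them COL1A2, COL3A1, PDGFRB, EPCAM and KRT8.

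Around the members, the wider machinery of the mark was mostly above background, in 58 of 70 measured genes from 8 lists (82.9%), against the 50.5% of all genes. The lists were chosen with earlier results of these data known, so this share is a description only. Of the H3K9 methyltransferases that are not members, 1 of 4 was above background. PRDM2 was (10.59 ± 0.08, by 2 of 5 probe sets), whereas SETDB2, a relative of SETDB1 (4.80 ± 0.28), MECOM (4.22 ± 0.58) and PRDM16 (3.77 ± 0.22) were not. The 5 member methyltransferases were thus above background in this line, and 3 of the 4 further ones listed were not.

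Partners of the methyltransferases were above background in 5 of 6 cases. ATF7IP, which stabilises SETDB1 (10.29 ± 0.01, by 2 of 3 probe sets), and its relative ATF7IP2 (7.63 ± 0.08) were above. WIZ, a zinc finger partner of EHMT1 and EHMT2 (6.81 ± 0.13, by 1 of 3 probe sets), was above too, and CDYL2 was not (4.84 ± 0.03). At the 75th percentile of the tissue genes CDYL2 was above too, which made 6 of 6. The HUSH complex, which silences inserted sequences with SETDB1, and its effector MORC2 were above in 4 of 4 cases, with MPHOSPH8 at 10.31 ± 0.01, TASOR at 10.17 ± 0.06, PPHLN1 at 11.76 ± 0.07 and MORC2 at 9.54 ± 0.01. Every probe set of these 4 genes was above the level.

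The enzymes that remove the mark were also above background. Of 11 H3K9 demethylase genes 9 were, among them KDM1A (10.04 with an SD under 0.01), KDM3A (9.14 ± 0.01) and KDM3B (9.28 ± 0.08), while KDM4D (4.39 ± 0.05) and KDM7A (4.58 ± 0.16) were not. Genes for the writers and for the erasers of H3K9 methylation were thus above background in the same cultures.

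The ATRX partner DAXX, other chaperones of H3.3 and the H3.3 gene H3-3A were above background in 7 of 7 cases. Among them were DAXX (8.91 ± 0.07), HIRA (9.97 ± 0.06, by 1 of 2 probe sets), CABIN1 (6.82 ± 0.24) and H3-3A (8.75 ± 0.03). Proteins that bind HP1 were above in 12 of 14 cases, including the chromatin assembly factor subunits CHAF1A (10.04 ± 0.05) and CHAF1B (8.09 ± 0.02) and the lamin B receptor LBR (11.62 ± 0.04), which anchors HP1 at the nuclear envelope. The exceptions were BAHD1 (5.66 ± 0.20) and KMT5C, a methyltransferase of H4 lysine 20 (5.47 ± 0.17), whose relative KMT5B was above (9.17, SD under 0.01). The calls of BAHD1 and KMT5C depend on the level. With the 75th percentile of the tissue genes, or the 95th percentile of olfactory receptor genes, 14 of 14 were above.

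On the TRIM28 side, 11 of 12 relatives and co-repressors were above background. These included TRIM24 (9.88 ± 0.01, by 2 of 4 probe sets), TRIM33 (9.41 ± 0.17, by 3 of 4) and TRIM66 (6.38 ± 0.05). MTA2, a subunit of the NuRD complex, was not (4.56 ± 0.18, by 1 probe set). Of the KRAB zinc finger genes, which bring TRIM28 to DNA, 9 of 12 were above, including ZNF43 (9.53 ± 0.03) and ZNF91, known for silencing SVA transposons (10.13 ± 0.01, by 1 of 3 probe sets). ZNF10 (5.51 ± 0.13), ZNF568 (4.02 ± 0.15) and ZNF649 (4.82 ± 0.32) were not. With the 75th percentile of the tissue genes, or the 95th percentile of olfactory receptor genes, 10 of 12 were above, ZNF10 among them. Zinc finger genes of this family resemble each other, so their probes may be shared and single values are uncertain.

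**Figure D3:**
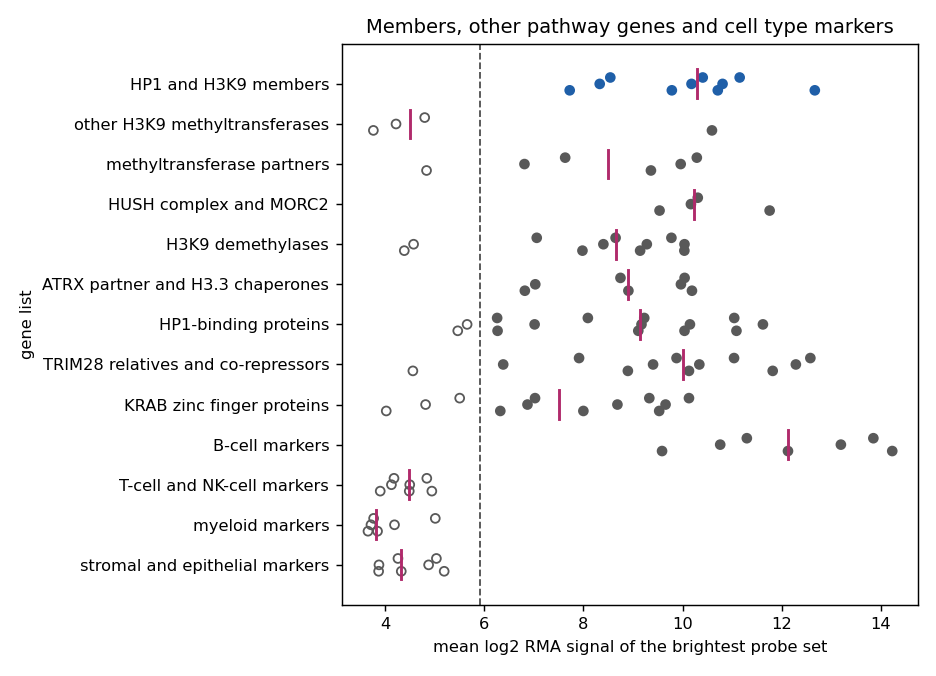
Each point is 1 gene by the mean log2 RMA signal of its brightest probe set, with the gene lists from top to bottom; filled points were above background on both arrays and open points were not. Red bars are list medians and the dashed line is the mean background level (5.92); all 10 members, in blue, lie between 7.72 and 12.67, and the markers of other cell types all lie left of the line.

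Position gave a mixed picture. The nearest measured gene on either side of each member was taken from the gene order of the RefSeq table, and 13 of these 20 neighbours were above background, against 57.3% of the neighbours of all genes above background. CBX3 lies head to head with HNRNPA2B1, an RNA-binding protein gene, their start sites being 697 bases apart on opposite strands. HNRNPA2B1 had 13.65 in replicate 1 and 13.66 in replicate 2 (13.65 ± 0.01), with 3 of 3 probe sets above the level. HNRNPA1, a relative of HNRNPA2B1, is the measured gene next to CBX5, and it was above background too (11.78 ± 0.02).

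Other members were next to genes that were not above background. EHMT2 lies start to start with the complement gene C2, 85 bases apart on opposite strands, and C2 was at 4.51 ± 0.07 while its neighbour on the other side, SLC44A4, was at 4.17 ± 0.16. EHMT1 lies likewise 110 bases from the start of ARRDC1-AS1 (5.35 ± 0.30), and beyond its other end CACNA1B, a calcium channel gene, was at 4.04 on both arrays. SUV39H1 stands between WAS (5.12 ± 0.25) and GATA1, an erythroid transcription factor gene (5.32 ± 0.24). The calls for WAS, ARRDC1-AS1 and CACNA1B rest on 1 probe set each. Those for WAS, GATA1 and ARRDC1-AS1 depend on the level. Each exceeded the 75th percentile of the tissue genes, 4.75 in replicate 1 and 4.78 in replicate 2. Of the partners with values and a close start on the opposite strand, that of CBX3 was above background, and those of EHMT1 and EHMT2 were not. SUV39H2-DT, with a start 207 bases from that of SUV39H2, and LOC107985204, near the start of SETDB1, had no probe set used here. For HNRNPA1, next to CBX5, no start site was available, so that pair was not assessed.

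The remaining neighbours were above background with 1 exception. CBX1 stands between NFE2L1 (9.72 ± 0.04) and SNX11 (10.13 ± 0.02), and on the far side of CBX3 lies SNX10 (10.65 ± 0.02). SMUG1, next to CBX5, was at 7.11 ± 0.02. SUV39H2 stands between HSPA14 (10.54 ± 0.03) and DCLRE1C (9.12 ± 0.04), whose gene overlaps it. SETDB1 stands between ARNT (7.30 ± 0.08) and CERS2 (9.63 ± 0.12), and TRIM28 between SLC27A5 (6.81 ± 0.07) and CHMP2A (11.13 ± 0.05). Next to ATRX, MAGT1 was at 11.53 ± 0.04, and FGF16 was the exception (3.99, SD under 0.01, by 1 probe set).

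The start regions of the members were rich in CpG. Windows were matched by symbol for 8 of the 10 members, all but TRIM28 and ATRX, and the window with most CpG was taken where a gene had several. They held 19 CpG for CBX3, 22 for SETDB1, 25 for CBX5 and for EHMT2, 38 for CBX1, 42 for SUV39H1, 44 for SUV39H2 and 51 for EHMT1, with a median of 31.5. Over all genes above background the median was 29 (7096 windows), and over genes not above background it was 16 (5999 windows). At least 15 CpG were found in 8 of 8 member windows, in 90.5% of windows of genes above background and in 52.8% of those of genes not above it. The members thus resembled other genes above background in this feature. The start used matters, since the further SUV39H1 window held 7 CpG and the further CBX5 windows 4 and 6.

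Short motifs were searched on both strands of the same windows. GGGCGG, a GC box, was in 6 of 8 member windows, against 75.8% of windows of genes above background and 64.4% of all windows of measured genes. CCGGAAG, a core bound by ETS factors, was in 2 of 8, those of CBX3 and SETDB1, against 23.1% and 15.4%. CCAAT was in 2 of 8, those of CBX5 and SUV39H1, against 37.3% and 35.4%, and TATAAA in 0 of 8, against 4.38% and 7.97%. With 8 windows these counts are descriptions, and no match means only that these letters are not in the window.

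**Figure D4:**
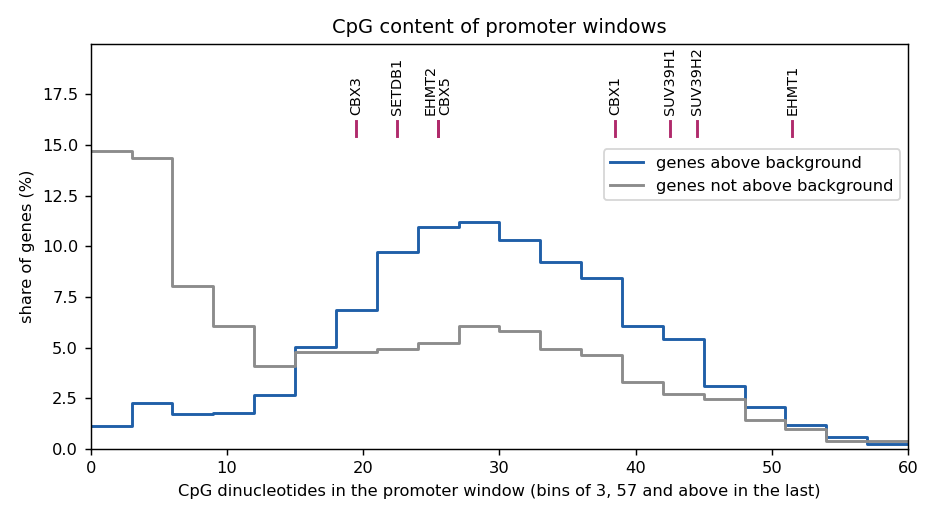
The horizontal axis is the number of CpG dinucleotides in the promoter window of a gene and the vertical axis is the share of genes in each bin, for genes above background (blue) and not above it (grey). Red ticks at the top mark the 8 members with a window, from CBX3 with 19 to EHMT1 with 51; all lie in bins that hold a larger share of the genes above background than of the genes not above it.

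With 2 samples of 1 group, no likeness of patterns across samples could be computed, so no genes are named as resembling a member.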

How the data were processed

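RNA of 2 samples of 1 group was hybridised to 1 array each. The intensity values deposited by the authors were made with RMA, per the submitters' processing notes; the sources used here give no version of it. They are on a linear scale, 1 value per probe set and array, and their log2 was taken here (Python 3.11.15, numpy 2.4.6, pandas 2.3.3). The array design holds more probe sets, not analysed here, so a gene can have more than are described, and the number of arrays limits the precision.

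Entrez IDs served to update symbols to those of RefSeq (GRCh38.p14): 29461 of 29493 probe sets with 1 symbol matched, 1407 had several symbols and 5389 had none. The files name no genome build, so the gene table served for names, order and overlap, and distances between start sites are those of the RefSeq promoter table. A gene was represented by its brightest probe set. Every member is named. Of the other lists the first 3 measured genes and those not above background (at most 5) are named, with both neighbours of each member; CBX3P2, H3-3A, MORC2, KMT5B, MBP and KRT10 were named after their values were seen. CpG were counted, and protein sequences were not analysed here. Members and lists were chosen with earlier results of these data known. No test was run, since there is 1 group. The steps were tested on simulated arrays with the same noise at every signal. Such arrays cannot show whether the background level is right.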

Additional observations from a re-analysis of the deposited data

How the results depend on the processing

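All 10 member genes and all 22 member probe sets were above background with the background set by the 75th percentile of the reference genes or the 95th percentile of 67 olfactory receptor genes, with a repeated quantile normalization, with loess, and with log2(value + 16). The share of all genes above was 61.0% at the 75th percentile and 56.2% at the olfactory level, against 50.5% at the main level. It was 50.5% with the repeated normalization, 50.4% with loess and 50.4% with the offset. With replicate 1 or 2 left out the counts were also 10 and 22, with 51.2% of all genes above in each case. With the background set by the 99th percentile the counts were 4 of 10 genes (CBX1, CBX3, CBX5 and SUV39H2), 5 of 22 probe sets and 8 of 70 other pathway genes, while 11.0% of all genes were above. That level, 10.52 in replicate 1 and 10.59 in replicate 2, lies between the brightest reference genes, MBP (10.33 ± 0.04) and KRT10 (11.24 ± 0.08), and nearer to MBP. Without KRT10, an alternative chosen after seeing the data, the counts were 10 of 10, 17 of 22 and 46 of 70, with 38.7% of all genes above. The share of all probe sets above was computed for the main level only. Without probe sets ending in _x_at and _s_at, which left 8 members (all but SUV39H1 and ATRX) with 11 probe sets, all 11 were above and 1 differed by more than 0.2 between the arrays. At that setting 46.3% of all genes were above. With a minimum difference of 0.1 there were 8 such probe sets, against 38.5% of all, and with 0.3 there were 2, against 4.94%. The median difference over the members was 0.022 with the mean of all probe sets of a gene, in place of -0.044. Over the other settings of the level, summary, normalization, offset and replicates, 56 to 62 of 70 other pathway genes were above background, and 41 of 53 without _x_at and _s_at. No paired analysis was possible because there is 1 group.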
